A study of Mus musculus with 33 samples.

Results

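The comparison described here is between vehicle-treated mouse mammary tumours of 2 transplant sets, across all genes. Tumours were chosen by the treatment field and the title: 4 vehicle tumours whose titles carry no suffix and 3 vehicle tumours whose titles end in _7, so 7 of the 33 tumours of the series. They are called unsuffixed and _7 tumours below, with replicates 1 to 4 and 1 to 3 in accession order, and every log2 fold change is unsuffixed minus _7. A further tumour whose title says vehicle and whose treatment field says RP-6306 was left out.

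The series, made to study inhibition of PKMYT1 in mammary tumours driven by cyclin E, holds transplanted tumours given vehicle or the PKMYT1 inhibitor RP-6306, and untreated tumours. Beside some results, values are given for 4 tumours titled _7 that received RP-6306 at 20 mg/kg and are not part of the comparison. The labels give the same description for both vehicle groups: mammary tumour tissue, genotype FVB (an inbred mouse strain), vehicle, tumours transplanted into mice, total RNA. Neither the tumour line, the transgene, the age of the mice, the length of treatment, the meaning of _7 nor whether samples of a group came from separate mice is given in the sources used here. The p-values below therefore measure the spread between these samples, and tumour line, treatment length, sequencing run and any other property that differs between the sets cannot be told apart.

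PKMYT1 and WEE1 are kinases that hold the mitotic kinase CDK1 in check by phosphorylating it, and cyclin E drives cells from G1 into S phase through CDK2. Mammary tumours of mice range from epithelial, with keratins and EPCAM, to mesenchymal (spindle cell or claudin-low), in which those genes are low and vimentin, collagens and EMT transcription factors are high. Vehicle tumours serve as the baseline against which a drug response is read.

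Vimentin was high in both groups, while epithelial genes were low in the _7 tumours and varied among the unsuffixed tumours. Vim, which encodes vimentin, stood at 4247, 4496, 5083 and 5593 CPM in unsuffixed and 4184, 4486 and 4448 CPM in _7 tumours, a difference of 0.14 ± 0.15 on the log2 scale (± SE; edgeR adjusted p = 0.489). Epcam, the epithelial adhesion gene, stood at 236, 26, 8.88 and 9.67 CPM in unsuffixed and 9.55, 0.961 and 4.21 CPM in _7 tumours. Unsuffixed replicate 1 was far above the other libraries, the groups overlapped, and the log2 fold change of 3.84 ± 1.31 did not pass (edgeR adjusted p = 0.0519; 1.60 without unsuffixed replicate 1, 4.75 without _7 replicate 1). It passed without unsuffixed replicate 3 or 4 (edgeR adjusted p = 0.0327 and 0.0359), with no filter on low counts (edgeR adjusted p = 0.0129) and in 1 fit over 32 libraries (edgeR adjusted p = 0.00168). Epithelial markers of the labelled tissue were low in the _7 tumours: the 32 luminal epithelium genes summed to 101 to 189 CPM there and to 702 to 2175 CPM in unsuffixed tumours. The typical member did not separate the groups. The median over tested members of log2 CPM minus the midpoint of the vehicle group means was 3.73, 1.25, -0.08 and -0.01 in unsuffixed tumours. In _7 tumours it was 0.01, -2.63 and -1.025.

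No difference in the drug target passed the test. Pkmyt1 (chromosome 17, 23726336 to 23736735 on GRCm38) stood at 27.6, 19.9, 17.3 and 26.1 CPM in unsuffixed and 23.9, 15.8 and 32.6 CPM in _7 tumours, with overlapping groups and a log2 fold change of -0.09 ± 0.26 (edgeR adjusted p = 0.81). Wee1 (-0.22 ± 0.20) and Cdk1 (0.03 ± 0.19) also missed the threshold (edgeR adjusted p = 0.424 and 0.927). Ccne1, which encodes cyclin E1, stood at 15.1, 9.8, 10.4 and 17.2 CPM in unsuffixed and 25, 15.8 and 27.1 CPM in _7 tumours. It was called lower in unsuffixed tumours (-0.80 ± 0.26; edgeR adjusted p = 0.0435), although the groups overlapped, and the call was lost without unsuffixed replicate 1, 2 or 3 or without _7 replicate 1 or 3 (edgeR adjusted p up to 0.153).

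The 2 vehicle groups nevertheless differed across the transcriptome. Of 15555 genes tested, 4817 were called at an edgeR adjusted p under 0.05 (31%), 2388 higher in unsuffixed tumours (15.4%) and 2429 lower (15.6%). The CPM ranges of the groups did not overlap for 6239 genes (40.1%), with unsuffixed tumours higher in 3083 (19.8%) and lower in 3156 (20.3%). The median log2 fold change over all genes was 0.0068. More called genes were past 2-fold on the unsuffixed side (1303) than on the _7 side (941). Unsuffixed libraries held 13965442 to 15972632 counts and _7 libraries 26517748 to 32054686, so depth and set are the same split, and thinning every library to the smallest total gave 4678 called genes. Correlations of log2 CPM across genes were 0.95 to 0.97 between unsuffixed libraries, 0.97 to 0.98 between _7 libraries and 0.88 to 0.92 between the groups. The first principal component held 63.2% of the variance and placed unsuffixed libraries at 41.2 to 66.1 and _7 libraries at -77.5 to -70.4. Along the second (12.2%) the unsuffixed libraries spread from -46.9 (replicate 3) to 46.9 (replicate 1), and the _7 libraries from -7.35 to 13.6.

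**Figure D1:**
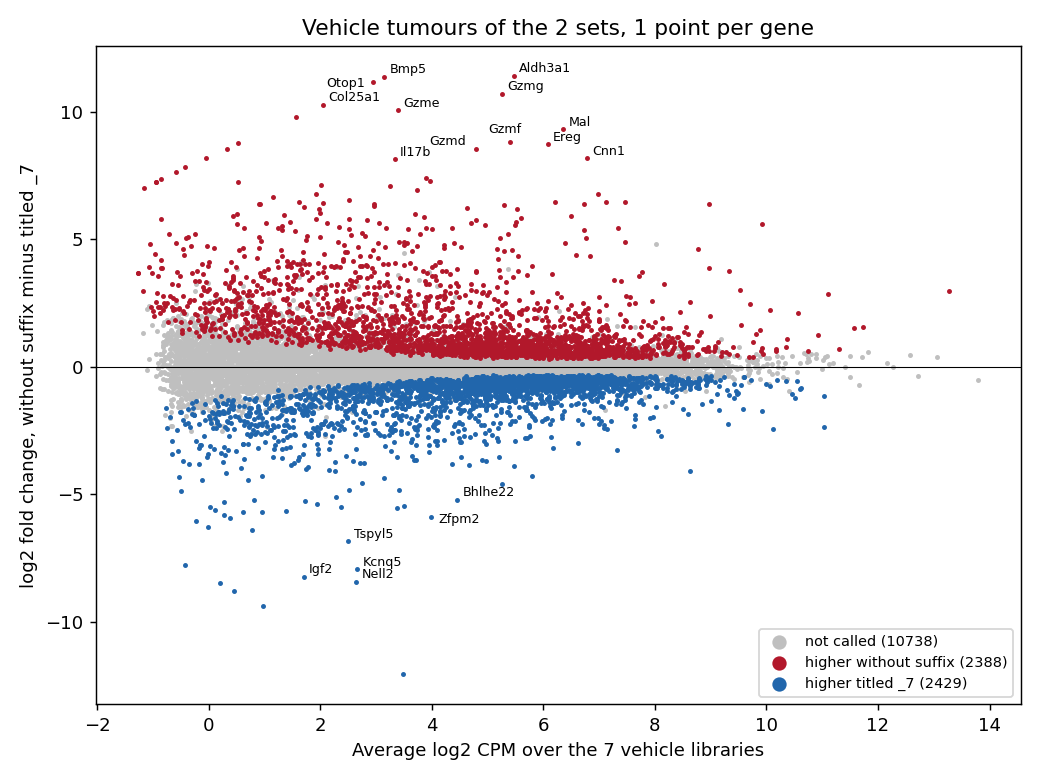
Log2 fold change (unsuffixed minus _7 vehicle tumours, y axis) against average log2 CPM (x axis) for each tested gene, with called genes in red (2388 higher in unsuffixed tumours) and blue (2429 higher in _7 tumours) and some of the leading genes described in the text named. Called genes lie on both sides at every level, and the fold change of Aldh3a1 reaches 11.42.

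Among the 12 largest fold changes towards unsuffixed tumours (among called genes whose mean log2 CPM was 1 or more and whose groups did not overlap) were a detoxifying enzyme, secreted signals, a contractile protein and granzymes. Aldh3a1, an aldehyde dehydrogenase (chromosome 11, 61207537 to 61218421), stood at 86.3, 117, 77.8 and 35.9 CPM in unsuffixed and 0, 0.032 and 0.0337 CPM in _7 tumours. With 2 counts over the _7 libraries, its summed counts gave a 3480-fold difference (exact 95% interval 962 to 28700; edgeR adjusted p = 2.32e-05). Bmp5, a ligand of the bone morphogenetic protein (BMP) family (chromosome 9, 75775364 to 75900310), stood at 12.5, 19.6, 22 and 9.81 CPM in the unsuffixed libraries, and had 0 counts in all 3 _7 libraries. With that group set to a floor of 3 counts in all, it was at least 466-fold higher (edgeR adjusted p = 1.03e-04); these intervals and bounds cover counting error only. Its bound lay between 301-fold (without _7 replicate 2) and 525-fold when 1 library was left out.

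Several of the others, likewise chosen among genes whose groups did not overlap, were growth factors and membrane proteins. Ereg, which encodes the EGF receptor ligand epiregulin, stood at 138, 229, 59.7 and 54.2 CPM in unsuffixed and 0.186, 0.256 and 0.37 CPM in _7 tumours (log2 fold change 8.74 ± 0.74). Mal, a protein of membrane rafts, stood at 38.8, 124, 119 and 299.9 CPM in unsuffixed and 0.557, 0 and 0.135 CPM in _7 tumours (9.33 ± 1.0; 8.70 without unsuffixed replicate 4, 10.97 without _7 replicate 1, 8.71 without _7 replicate 2). Il17b, a cytokine of the IL-17 family, stood at 19.6, 16.7, 21.6 and 14.7 CPM in unsuffixed and 0.186, 0 and 0 CPM in _7 tumours (8.15 ± 0.68; 11.49 without _7 replicate 1, 7.56 without _7 replicate 2). Aldh3a1, Ereg, Mal and Il17b were thus under 1 CPM in every _7 library and over 10 CPM in every unsuffixed library.

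Other leading genes were carried by some unsuffixed tumours. Cnn1, which encodes calponin of contractile cells, stood at 280.5, 339, 132 and 28 CPM in unsuffixed and 1.23, 0.448 and 0.337 CPM in _7 tumours (8.19 ± 1.0; 8.92 without _7 replicate 1), highest in unsuffixed replicates 1 and 2. The 4 granzyme genes on chromosome 14, Gzmd, Gzme, Gzmf and Gzmg, were also highest in replicates 1 and 2: Gzmf stood at 137, 149, 10.7 and 2.59 CPM in unsuffixed and 0, 0.352 and 0.101 CPM in _7 tumours (8.83 ± 1.75; 10.29 without _7 replicate 2). Summed counts gave a 2010-fold difference for Gzmg (interval 686 to 9740, with 3 counts over the _7 libraries) and 1670-fold for Gzme (299 to 66000, with 1). These genes are close copies, so reads may have been split between them, and limma voom called none of the 4 (Gzmd, Gzme, Gzmf and Gzmg, adjusted p = 0.163, 0.0605, 0.226 and 0.178). Otop1, a proton channel gene, stood at 0.323, 1.86, 6.54 and 47 CPM in the unsuffixed libraries, with 0 counts in the _7 libraries, and was at least 400-fold higher, or at least 83.9-fold without unsuffixed replicate 4. Its call was lost without _7 replicate 1, 2 or 3 (edgeR adjusted p up to 0.058). Col25a1, a transmembrane collagen gene, stood at 26.3, 2.43, 0.275 and 0.771 CPM in the unsuffixed libraries, again with 0 counts in the _7 libraries. It was at least 229-fold higher, or at least 33.5-fold without unsuffixed replicate 1, and its call was lost without _7 replicate 1, 2 or 3 (edgeR adjusted p up to 0.0674).

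On the _7 side, Bhlhe22, a neural transcription factor gene, stood at 2.46, 1.29, 0.826 and 0.701 CPM in unsuffixed and 51.1, 50.2 and 45.7 CPM in _7 tumours (log2 fold change -5.21 ± 0.34). Several others are known from neurons: Nell2 (409-fold higher in _7 tumours by summed counts, 95% counting interval 113 to 3380), the potassium channel gene Kcnq5 (271-fold, 92.6 to 1320), Snph (-5.65 ± 0.62), Erc2 (-5.27 ± 0.77) and Xkr6 (-5.39 ± 0.42). Snph stood at -6.69 without unsuffixed replicate 1 and Erc2 stood at -7.07 without unsuffixed replicate 4. Without unsuffixed replicate 1, Nell2 had 0 counts in the unsuffixed group and was at least 200-fold higher, and Kcnq5 was 598-fold higher (107 to 23600). Neuronal genes were not confined to the _7 side: the Schwann cell and neuron list had 3 genes called higher in unsuffixed tumours and 4 lower. That list summed to 808 to 1013 CPM in unsuffixed and 515 to 631 CPM in _7 vehicle tumours. Other leaders were Zfpm2, a cofactor of GATA factors, at 1.1, 0.215, 0.551 and 0.49 CPM in unsuffixed and 41.8, 37.9 and 27.7 CPM in _7 tumours (-5.90 ± 0.38), Tspyl5 (-6.84 ± 0.54), and Rspo4, which encodes an R-spondin that strengthens Wnt signalling (-5.47 ± 0.55). Igf2, the imprinted fetal growth factor, had 1 count in the unsuffixed group against 6.36, 11.1 and 3.33 CPM in the _7 libraries, a 409-fold difference by summed counts (73.1 to 16200; at least 103-fold without unsuffixed replicate 4).

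**Figure D2:**
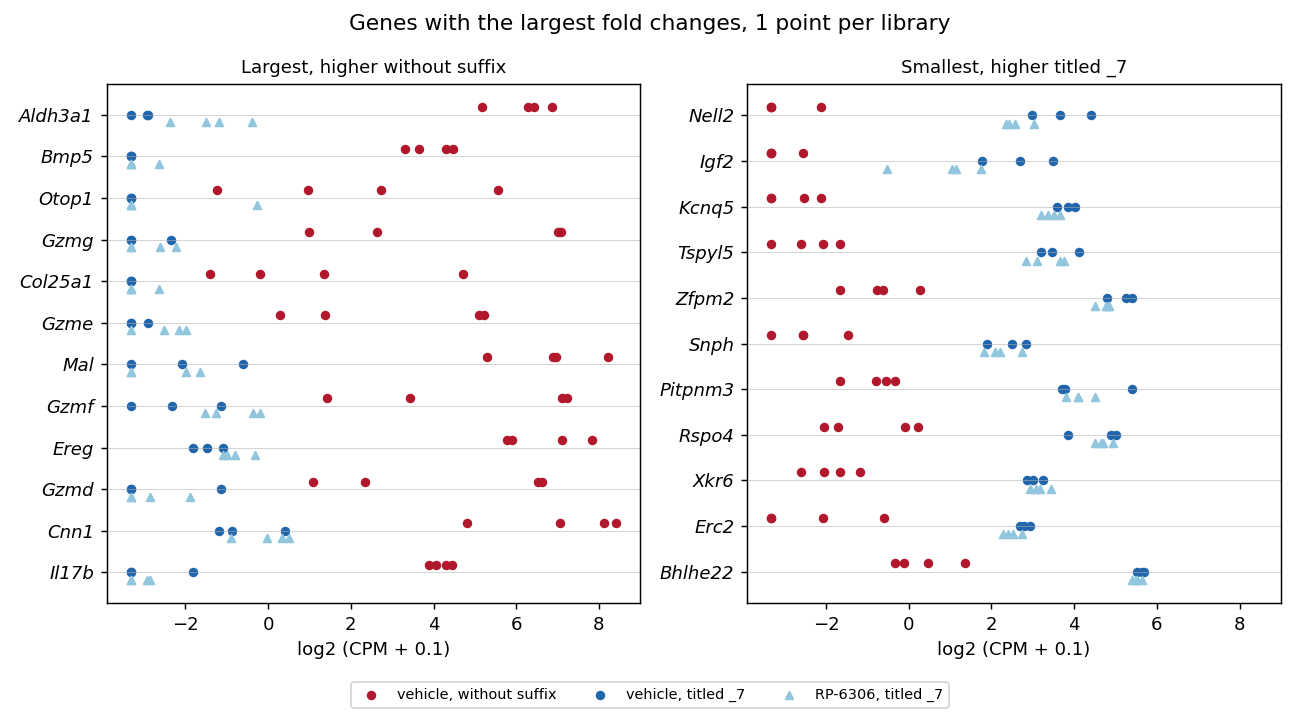
Log2 (CPM + 0.1) in every library for 12 genes with the largest (left) and 11 of those with the smallest (right) fold changes, for 4 unsuffixed vehicle (red), 3 _7 vehicle (dark blue) and 4 _7 RP-6306 tumours (light blue triangles). The 23 genes were chosen among those in which the 2 vehicle groups do not overlap. The RP-6306 tumours titled _7 lie on the side of the _7 vehicle tumours, apart from 1 Otop1 value.

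Interferon-stimulated genes were lower in unsuffixed tumours almost throughout. These genes are switched on when interferon activates a complex of STAT proteins and IRF9, which binds the interferon-stimulated response element (ISRE) in their promoters. Of 45 listed genes, 44 passed the filter on low counts, 40 were called lower and 0 higher (median log2 fold change -1.61, against 0.0068 over all genes), and in 37 the groups did not overlap. The 4 that were not called were Gbp2 (0.14), Gbp5 (-0.65), Ifi27l2a (-1.27) and Ifitm3 (0.35). To show the element in members that carry this difference, the 250 bases before the RefSeq start site are printed (GRCm38.p6, 5′ to 3′ on the gene's strand) for the 4 called members with the smallest p that hold it there, with the core of the element in capitals: a pair of GAAA with any 2 bases between them, searched on both strands (a pair of TTTC when read on the opposite one). Cxcl10 lies on the minus strand at chr5:92348890-92349139, Ifit1 on the plus strand at chr19:34640639-34640888, Rsad2 on the minus strand at chr12:26456453-26456702 and Ifit3 on the plus strand at chr19:34583279-34583528.
Cxcl10: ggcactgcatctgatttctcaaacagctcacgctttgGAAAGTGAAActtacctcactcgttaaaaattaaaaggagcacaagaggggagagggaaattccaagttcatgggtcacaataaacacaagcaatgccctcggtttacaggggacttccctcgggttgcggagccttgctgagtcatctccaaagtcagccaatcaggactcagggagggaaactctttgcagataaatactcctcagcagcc
Ifit1: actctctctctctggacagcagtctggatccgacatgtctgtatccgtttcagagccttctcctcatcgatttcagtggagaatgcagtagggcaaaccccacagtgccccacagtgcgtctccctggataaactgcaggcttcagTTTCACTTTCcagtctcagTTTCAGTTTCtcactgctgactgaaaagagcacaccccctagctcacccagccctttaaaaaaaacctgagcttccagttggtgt
Rsad2: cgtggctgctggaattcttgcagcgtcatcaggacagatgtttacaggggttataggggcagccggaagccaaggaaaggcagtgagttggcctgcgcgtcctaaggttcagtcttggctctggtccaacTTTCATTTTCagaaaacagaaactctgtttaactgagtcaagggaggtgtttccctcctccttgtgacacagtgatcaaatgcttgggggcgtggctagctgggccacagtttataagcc
Ifit3: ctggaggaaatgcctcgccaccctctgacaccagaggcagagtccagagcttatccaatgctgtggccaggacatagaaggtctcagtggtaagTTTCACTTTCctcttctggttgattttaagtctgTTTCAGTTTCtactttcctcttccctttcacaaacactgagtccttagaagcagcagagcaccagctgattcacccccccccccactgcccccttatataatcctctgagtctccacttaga
The element nearest the start began 213 bases before it in Cxcl10, 85 in Ifit1, 120 in Rsad2 and 122 in Ifit3, and Ifit1 and Ifit3 each held 2. In windows of 300 bases (250 before and 50 after the start), 31 of the 45 genes had an entry and 21 held the core (67.7%), against 1079 of 27025 genes (3.99%) overall. Among members not called, Gbp2, Gbp5 and Ifitm3 also held the core in their windows. Called members without it included Cxcl9, Ifit2, Irf7 and Irf9. A match describes these letters and not bound protein.

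The members printed above were lower in every unsuffixed library. Cxcl10, a chemokine that draws T cells, stood at 9.24, 11.2, 10.7 and 7.29 CPM in unsuffixed and 68.5, 41.4 and 108 CPM in _7 tumours, a log2 fold change of -2.92 ± 0.30 (edgeR adjusted p = 2.71e-04). Ifit1, an inhibitor of viral translation, stood at 7.49, 9.15, 11.7 and 7.57 CPM in unsuffixed and 32, 37.2 and 57.5 CPM in _7 tumours (-2.24 ± 0.24; edgeR adjusted p = 3.20e-04), and Rsad2 (viperin) and Ifit3 had log2 fold changes of -1.94 ± 0.25 and -2.24 ± 0.30. Among all libraries _7 replicate 3 was the highest library for both Cxcl10 and Ifit1. Ifih1, which encodes the RNA sensor MDA5, stood at 6.14, 8.51, 9.09 and 11.4 CPM in unsuffixed and 36.3, 36.3 and 48.9 CPM in _7 tumours (-2.21 ± 0.22). Among the transcription factors of the pathway, Stat2 (-0.90 ± 0.17), Irf9 (-0.78 ± 0.15) and Irf7 (-2.13 ± 0.27) were called lower. Summed over the list, unsuffixed tumours held 1076 to 1222 CPM and _7 vehicle tumours 1741 to 2986 CPM. RP-6306 tumours titled _7 held 2502 to 3888 CPM, also above all unsuffixed vehicle tumours. Tested against a fold of at least 2, 15 of the 40 were called.

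Genes of antigen presentation moved in the same direction. MHC class II molecules present peptides on professional antigen-presenting cells. Of 11 class II genes tested (12 listed), 10 were called lower and 0 higher (median -1.64), and all 11 were lower in every unsuffixed library than in every _7 library. H2-Aa, a class II chain, stood at 63.1, 125, 91 and 67.1 CPM in unsuffixed and 514, 272 and 275 CPM in _7 tumours (-2.04 ± 0.30; edgeR adjusted p = 0.00144). Cd74, the invariant chain, stood at 209, 393, 331 and 246 CPM in unsuffixed and 1326, 725 and 793 CPM in _7 tumours (-1.70 ± 0.27), and Ciita, the class II transactivator, at 2.78, 7.79, 3.72 and 4.21 CPM in unsuffixed and 27.6, 12.8 and 15 CPM in _7 tumours (-2.01 ± 0.38). In each of these _7 replicate 1 was highest. Of 20 class I genes, 15 were called lower and 0 higher (median -0.83), a share of 75% against 31% of all genes. Nlrc5, the class I transactivator, stood at 16.5, 15.2, 18.7 and 14.2 CPM in unsuffixed and 82, 73.2 and 162 CPM in _7 tumours (-2.73 ± 0.27), H2-K1 at 526, 419, 647 and 373 CPM in unsuffixed and 1689, 1413 and 1768 CPM in _7 tumours (-1.74 ± 0.20), and the light chain gene B2m had a log2 fold change of -1.22 ± 0.15. Tap2 (-0.05), Tapbp (0.06), Tapbpl (-0.20), Psmb8 (-0.16) and Psmb10 (-0.41) were not called. The H2-Q genes are near copies of each other, and reads may have been split between them. At a fold of at least 2, 1 class II and 5 class I genes were called.

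**Figure D3:**
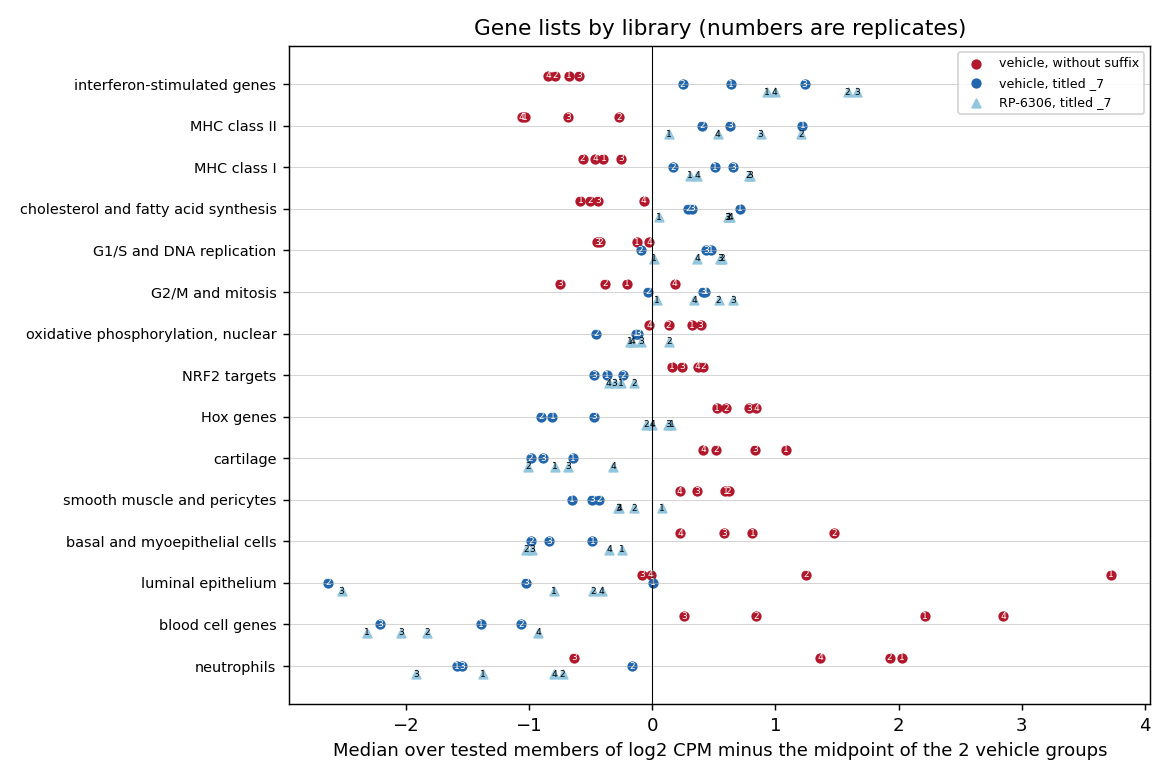
Median over the tested members of a list of log2 CPM minus the midpoint of the 2 vehicle group means (x axis), for 15 lists (rows) and 11 libraries (points numbered by replicate). Interferon-stimulated, MHC and cholesterol synthesis genes lie lower in all 4 unsuffixed tumours than in the 3 _7 vehicle tumours, NRF2 target, Hox, cartilage, smooth muscle and basal genes lie higher, and the luminal, neutrophil, G1/S and G2/M lists overlap between the groups.

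Few T cell markers were called. Of 25 T cell genes tested, 3 were called lower and 22 were not called (median -0.58), a share of 12% against 31% of all genes: Cd8a (0.452, 0.286, 0.482 and 0.911 CPM in unsuffixed and 3.38, 2.08 and 4.48 CPM in _7 tumours; -2.63 ± 0.46), Cd3e (-2.29 ± 0.53) and Zap70 (-1.93 ± 0.44). The T cell list summed to 61.2 to 75.8 CPM in unsuffixed and 71.7 to 109 CPM in _7 vehicle tumours. Of the T cell list, the number called lower was 5 without _7 replicate 2. In the T cell list, genes called higher numbered 1 without unsuffixed replicate 1, 2 without unsuffixed replicate 3. Of 13 NK and cytotoxic genes, 4 were called lower and 1 higher, a share of 38.5% against 31% of all genes. Ccl5, a T cell chemoattractant, stood at 4.84, 3.58, 5.37 and 4.7 CPM in unsuffixed and 23.8, 18.4 and 28.5 CPM in _7 tumours (-2.36 ± 0.22), and Klrk1, the receptor NKG2D, had -2.66 ± 0.46. That list summed to 16.0 to 85.3 CPM and 32.4 to 70.9 CPM. Genes of the NK and cytotoxic list called lower numbered 2 without _7 replicate 3. For the NK and cytotoxic list, the count called higher was 0 without _7 replicate 1 or 3, 2 without unsuffixed replicate 3 or 4. Of 8 B and plasma cell genes, 3 were called lower and 1 higher, a share of 50%. Ighm, the IgM heavy chain, stood at 2.91, 3.22, 4.54 and 1.96 CPM in unsuffixed and 45.4, 20.8 and 64.5 CPM in _7 tumours (-3.79 ± 0.40). The sum over this list went the other way, at 578 to 928 CPM in unsuffixed and 234 to 252 CPM in _7 vehicle tumours. Of its 19 listed genes, 11 were too low to test, Ms4a1 among them. The member called higher was Sdc1 (2.01 ± 0.19), which epithelial cells also make. Of the B and plasma cell list, the number called higher was 2 without unsuffixed replicate 3. In bulk tissue fewer cells of a type and less RNA per cell cannot be told apart, and the part of these cells in the interferon and MHC differences was not tested.

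Macrophage genes did not move as a block. Of 26 tested, 9 were called lower and 5 higher (median -0.05), a share of 53.8% against 31% of all genes. The list summed to 8859 to 12660 CPM in unsuffixed and 9466 to 9874 CPM in _7 tumours. Lower genes included those of monocytes and recruited cells. Cx3cr1, the fractalkine receptor, stood at 21.9, 53.7, 119.5 and 163 CPM in unsuffixed and 564, 461 and 506 CPM in _7 tumours (-2.52 ± 0.54) and Ccr2, the receptor for CCL2, at 24.5, 37.1, 91.2 and 70.3 CPM in unsuffixed and 237, 182 and 249 CPM in _7 tumours (-2.01 ± 0.38). Both were lowest in unsuffixed replicates 1 and 2. Adgre1, which encodes F4/80, stood at 58.5, 58.5, 59.5 and 65.8 CPM in unsuffixed and 138, 125 and 134 CPM in _7 tumours (-1.13 ± 0.10; edgeR adjusted p = 1.68e-04). Higher genes included Cd163, a scavenger receptor, at 16.3, 18.1, 22.7 and 15.8 CPM in unsuffixed and 4.13, 3.07 and 4.11 CPM in _7 tumours (2.26 ± 0.22), Nos2 (2.18 ± 0.38), Arg1 (1.43 ± 0.35) and the secreted Spp1 (1.27 ± 0.27). Nos2 and Arg1 encode enzymes that both consume arginine.

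Blood cell genes were higher in unsuffixed tumours, and neutrophil and mast cell genes varied between libraries. All 6 tested blood cell genes of 11 listed were called higher (median 3.38). Haemoglobin alpha Hba-a1 stood at 379.9, 136, 109.6 and 779 CPM in unsuffixed and 28.1, 41.6 and 18.7 CPM in _7 tumours (3.57 ± 0.71; 2.82 without unsuffixed replicate 4), and the platelet gene Pf4 at 145, 106, 38.3 and 70.2 CPM in unsuffixed and 13.3, 14.1 and 7.41 CPM in _7 tumours (2.95 ± 0.45). Reads may have been split between Hba-a1 and its near copy. Of 15 neutrophil genes, 7 were called higher and 1 lower, a share of 53.3% against 31% of all genes. The groups did not overlap in 2 of the 15 with unsuffixed tumours higher, against 19.8% of all genes. Unsuffixed replicate 3 was the lowest of its group: S100a8 stood at 15.2, 20.3, 2.41 and 13.7 CPM in unsuffixed and 0.743, 3.01 and 0.606 CPM in _7 tumours (3.13 ± 0.78). The call of S100a8 was lost without _7 replicate 1 or 3 (edgeR adjusted p up to 0.0623), and its log2 fold change was 4.23 without _7 replicate 2. In the neutrophil list, genes called higher numbered 2 without _7 replicate 1 or 3, 3 without unsuffixed replicate 2, 4 without unsuffixed replicate 1, 12 without unsuffixed replicate 3. Genes of the neutrophil list called lower numbered 0 without unsuffixed replicate 1 or 3 or without _7 replicate 1 or 3. Padi4, an enzyme that citrullinates histones, was high in all 4 unsuffixed tumours, at 29.5, 21.2, 18.6 and 41.6 CPM in unsuffixed and 0.26, 0.256 and 0 CPM in _7 tumours (7.28 ± 0.62; edgeR adjusted p = 1.14e-04). The mast cell protease gene Mcpt4 stood at 15.8, 16.1, 6.33 and 0.841 CPM in unsuffixed and 1.04, 0.48 and 1.25 CPM in _7 tumours (3.39 ± 0.86), with overlapping groups, and its call was lost without _7 replicate 1 or 2 (edgeR adjusted p up to 0.0589). Of 17 dendritic and mast cell genes, 4 were called higher and 4 lower (47.1%), and in 0 did the groups separate with unsuffixed tumours higher. Limma voom called 0 higher. The 4 higher genes were the mast cell genes Mcpt4, Cma1, Cpa3 and Tpsb2, and each lost its call without _7 replicate 1 or 2, Cma1 and Cpa3 also without _7 replicate 3, and Cpa3 also without unsuffixed replicate 1 or 2. For the dendritic and mast cell list, the count called higher was 0 without _7 replicate 2, 1 without _7 replicate 1, 2 without _7 replicate 3, 8 without unsuffixed replicate 3. Of the dendritic and mast cell list, the number called lower was 1 without unsuffixed replicate 1 or without _7 replicate 2 or 3, 2 without unsuffixed replicate 2, 3 or 4 or without _7 replicate 1.

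Sterol synthesis genes were lower in unsuffixed tumours. These enzymes turn acetyl-CoA into cholesterol under the transcription factor SREBP2. Of 23 cholesterol and fatty acid synthesis genes tested, 15 were called lower and 0 higher (median -0.85), a share of 65.2% against 31% of all genes. Idi1, isopentenyl diphosphate isomerase, stood at 5.94, 5.43, 4.2 and 9.74 CPM in unsuffixed and 40.7, 22.2 and 26 CPM in _7 tumours (-2.24 ± 0.31; edgeR adjusted p = 0.00111). Hmgcs1, an early enzyme, stood at 47.5, 54.4, 51.6 and 62.6 CPM in unsuffixed and 147, 102 and 105 CPM in _7 tumours (-1.14 ± 0.16), Msmo1 at 24.5, 35.3, 40.3 and 52.8 CPM in unsuffixed and 146, 97.7 and 101 CPM in _7 tumours (-1.60 ± 0.25), and Cyp51 had -1.74 ± 0.30. For Idi1, Hmgcs1 and Msmo1 _7 replicate 1 was the highest library. The regulators Insig1 (-1.27 ± 0.17) and Srebf2 (-0.72 ± 0.17) were also lower. Dhcr7 (-0.09), Srebf1 (0.00) and, of fatty acid synthesis, Acly (-0.02) and Scd1 (-0.46) were not called, whereas Fasn (-0.86 ± 0.18) was. At a fold of at least 2, 1 member was called. The sterol regulatory element letters TCACNCCAC, searched on both strands, stood in the promoter window of 1 of 15 list genes with an entry (6.67%) and of 1.44% of all genes.

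Among genes of detoxification, glycolysis and oxidative phosphorylation, more were called higher than lower in unsuffixed tumours. Of 20 targets of NRF2, the factor that switches on genes against oxidative stress, 11 were called higher and 0 lower (median 0.63). Nqo1, a quinone reductase, stood at 31.7, 31.5, 20.8 and 28 CPM in unsuffixed and 4.24, 1.76 and 1.89 CPM in _7 tumours (3.41 ± 0.35; edgeR adjusted p = 2.60e-04), and Osgin1 (2.12 ± 0.28), Gstm2 (3.13 ± 0.53) and the Aldh3a1 given above were further members. The glutamate-cysteine ligase genes Gclc (0.16) and Gclm (0.09) and the cystine transporter gene Slc7a11 (-0.10), targets of the same factor, were not called. Of 21 glycolysis genes, 9 were called higher and 0 lower (median 0.49), with Ldha, lactate dehydrogenase, at 1176, 1208, 986 and 1093 CPM in unsuffixed and 562, 656 and 467 CPM in _7 tumours (0.98 ± 0.15), and the muscle-type Eno3 (2.33 ± 0.44; 2.93 without _7 replicate 1). Of 45 nuclear oxidative phosphorylation genes, 18 were called higher and 2 lower (median 0.45), such as Ndufb9 of complex I at 124, 101, 118 and 91.7 CPM in unsuffixed and 52.9, 45 and 49.1 CPM in _7 tumours (1.14 ± 0.14). In the oxidative phosphorylation list, genes called higher numbered 11 without _7 replicate 2. Shares called were 55% for NRF2 targets, 42.9% for glycolysis and 44.4% for nuclear oxidative phosphorylation, against 31% of all genes. Of 26 hypoxia genes, 5 were called higher and 2 lower, a share of 26.9% against 31% of all genes. Ddit4, a stress-induced inhibitor of mTORC1, stood at 229.8, 244, 125 and 151 CPM in unsuffixed and 52, 73.7 and 35.9 CPM in _7 tumours (1.79 ± 0.30). Pdk1, a kinase that closes pyruvate off from mitochondria, was lower (-0.92 ± 0.24; its call was lost without _7 replicate 2 (edgeR adjusted p = 0.0543)). The hypoxia list summed to 3795 to 5597 CPM in unsuffixed and 2259 to 4511 CPM in _7 vehicle tumours; the number called higher was 2 without _7 replicate 1 or 3, 8 without unsuffixed replicate 3, 12 without _7 replicate 2. Genes of the hypoxia list called lower numbered 0 without _7 replicate 2, 1 without unsuffixed replicate 1 or 2 or without _7 replicate 3.

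Genes of DNA replication and mitosis that were called were lower in unsuffixed tumours. Of 39 G1/S and DNA replication genes, 17 were called lower and 0 higher (median -0.57), and of 34 G2/M genes 12 were called lower and 0 higher (median -0.56). Shares called were 43.6% and 35.3%, against 31% of all genes. At a fold of at least 2, 0 genes of either list were called lower. Mcm6, a subunit of the replicative helicase, stood at 67.4, 54.2, 53.6 and 93.7 CPM in unsuffixed and 179, 112 and 174 CPM in _7 tumours (-1.21 ± 0.23), with _7 replicate 2 the lowest of its group. Bub1, a spindle checkpoint kinase, stood at 15.8, 13.3, 11.4 and 19.1 CPM in unsuffixed and 50.7, 36.4 and 40.9 CPM in _7 tumours (-1.52 ± 0.20; edgeR adjusted p = 7.81e-04), and Foxm1, a driver of mitotic genes, at 79.8, 65.7, 53.6 and 92.7 CPM in unsuffixed and 172, 128 and 179 CPM in _7 tumours (-1.14 ± 0.20). For the G1/S and DNA replication list, the count called lower was 6 without _7 replicate 3, 9 without _7 replicate 1. Of the G2/M and mitosis list, the number called lower was 7 without _7 replicate 1 or 3, 22 without unsuffixed replicate 4. Of 27 genes of the CDK1 switch and cyclins, 7 were called lower, among them Ccna2 (-1.19 ± 0.19) and Ccne2 (-1.10 ± 0.27; its call was lost without _7 replicate 1 (edgeR adjusted p = 0.0657)), and 1 was called higher. That gene was Ccnd2, which encodes cyclin D2, at 190.4, 172, 138 and 161 CPM in unsuffixed and 39.6, 27.2 and 39.3 CPM in _7 tumours (2.22 ± 0.18; edgeR adjusted p = 9.13e-05). In the CDK1 switch and cyclins list, genes called lower numbered 4 without _7 replicate 1 or 3. Genes of the CDK1 switch and cyclins list called higher numbered 2 without unsuffixed replicate 3. Of 29 DNA repair genes, 9 were called lower and 1 higher, including Brca2 (-1.24 ± 0.19) and Atm (-1.14 ± 0.14). Shares called were near the 31% of all genes, at 29.6% for the CDK1 switch and cyclins and 34.5% for DNA repair. At a fold of at least 2, 0 genes of these lists were called lower. For the DNA repair and checkpoint list, the count called lower was 4 without _7 replicate 1, 5 without _7 replicate 3. Trp53 stood at 21.9, 19.9, 36.4 and 24.6 CPM in unsuffixed and 46.9, 41.5 and 52.9 CPM in _7 tumours (-0.88 ± 0.21), and of 30 genes of the p53 list 6 were called higher and 3 lower, a share of 30% against 31% of all genes. Of the p53 list, the number called higher was 2 without _7 replicate 3, 3 without _7 replicate 1. Among the higher genes was Perp, a desmosome gene, at 154, 212, 104 and 53.2 CPM in unsuffixed and 1, 0.576 and 2.79 CPM in _7 tumours (6.47 ± 0.67; 7.37 without _7 replicate 3). Replication-dependent histone genes went the other way, with 7 of 16 tested (of 60 listed) called higher and 0 lower (median 1.13), such as Hist1h2bc at 64.5, 65.2, 77.3 and 33.8 CPM in unsuffixed and 15.3, 27.9 and 17.6 CPM in _7 tumours (1.56 ± 0.30). In the histone list, genes called higher numbered 2 without unsuffixed replicate 2 or without _7 replicate 1, 3 without _7 replicate 3. The share of the histone list called was 43.8%, against 31% of all genes. Histone genes have many near copies.

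Some epithelial genes were higher in unsuffixed tumours, unevenly between libraries. Of 28 luminal epithelium genes tested, 9 were called higher and 0 lower (median 2.77). The share called was 32.1%, near the 31% of all genes, of which 15.4% were called higher. The groups did not overlap in 8 of the 28, each with unsuffixed tumours higher. Over all genes they did not overlap in 40.1%, and in 19.8% with unsuffixed tumours higher. Krt8, the simple-epithelium keratin, stood at 866, 661, 503 and 1505 CPM in unsuffixed and 20.1, 6.82 and 4.51 CPM in _7 tumours (6.40 ± 0.67; edgeR adjusted p = 2.85e-04; 7.27 without _7 replicate 1), and its partner Krt18 at 256, 70.2, 69.8 and 268 CPM in unsuffixed and 13.6, 3.36 and 6.53 CPM in _7 tumours (4.40 ± 0.70; 5.06 without _7 replicate 1). Both were above all _7 libraries in all 4 unsuffixed tumours. Krt8 alone made up 503 of the 702 CPM summed over the luminal list in unsuffixed replicate 3, and 1505 of 1908 CPM in replicate 4. Elf3, an epithelial transcription factor, was carried mainly by unsuffixed replicate 1, at 20.5, 5.08, 1.1 and 1.68 CPM in unsuffixed and 0.0743, 0 and 0.236 CPM in _7 tumours (6.02 ± 1.33; 4.59 without unsuffixed replicate 1, 5.43 without _7 replicate 2, 7.42 without _7 replicate 3). Cdh1, E-cadherin (1.05), Grhl2 (3.91) and the hormone receptor gene Esr1 (-0.50) were not called. Genes of the luminal list called higher numbered 3 without _7 replicate 2 or 3, 4 without _7 replicate 1, 5 without unsuffixed replicate 1, 14 without unsuffixed replicate 3. Milk genes showed the same library most: Csn2, beta-casein, stood at 79.4, 8.94, 5.03 and 8.76 CPM in unsuffixed and 1.34, 0 and 0 CPM in _7 tumours (5.88 ± 1.50), and its call was lost without _7 replicate 2 or 3 (edgeR adjusted p up to 0.0591). Its log2 fold change was 4.11 without unsuffixed replicate 1, 11.98 without _7 replicate 1, 5.27 without _7 replicate 2, 5.28 without _7 replicate 3. Lcn2, the lipocalin of inflamed and lactating epithelium, stood at 747, 79.2, 28.4 and 34.8 CPM in unsuffixed and 3.23, 0.448 and 2.46 CPM in _7 tumours (6.77 ± 1.47; 4.54 without unsuffixed replicate 1). Of 9 milk and alveolar genes tested 4 were called higher, a share of 44.4% against 31% of all genes. For the milk list, the count called higher was 2 without _7 replicate 2 or 3.

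Basal and contractile genes were called higher in larger number than lower, and contractile genes varied widely among unsuffixed tumours. Of 18 basal and myoepithelial genes tested, 10 were called higher and 1 lower (median 1.72), a share of 61.1% against 31% of all genes. Itgb4, the hemidesmosome integrin, stood at 126, 217, 219.6 and 258 CPM in unsuffixed and 46.5, 31.8 and 13.4 CPM in _7 tumours (2.74 ± 0.41; edgeR adjusted p = 0.00165), Jag1, a Notch ligand, at 105, 125, 100.2 and 87.3 CPM in unsuffixed and 39.7, 30.2 and 32 CPM in _7 tumours (1.61 ± 0.16) and Trp63, the basal transcription factor, at 12.8, 23.8, 8.54 and 2.8 CPM in unsuffixed and 1, 0.864 and 1.31 CPM in _7 tumours (3.48 ± 0.65). The member called lower was Egfr (49.1, 64.9, 62.5 and 60.3 CPM in unsuffixed and 70.8, 90.2 and 124 CPM in _7 tumours; -0.69 ± 0.19), whose call was lost without unsuffixed replicate 1 or without _7 replicate 3 (edgeR adjusted p up to 0.0843); its ligand genes Ereg and Tgfa (5.41 ± 0.67) were higher and Hbegf (-0.72 ± 0.17) lower. The call of Hbegf was lost without _7 replicate 3 (edgeR adjusted p = 0.0534). Of 16 smooth muscle and pericyte genes, 7 were called higher and 0 lower (median 0.82), a share of 43.8% against 31% of all genes. Myl9, a myosin light chain, stood at 415, 469, 181 and 52.9 CPM in unsuffixed and 42.3, 22.2 and 15.6 CPM in _7 tumours (3.38 ± 0.71), and Smtn, smoothelin, at 272, 348, 298 and 218 CPM in unsuffixed and 104, 117 and 129.5 CPM in _7 tumours (1.27 ± 0.17). Actg2, enteric smooth muscle actin, stood at 360.0, 240.4, 27.5 and 4.13 CPM in unsuffixed and 3.16, 3.3 and 1.25 CPM in _7 tumours (5.93 ± 1.40; 5.14 without unsuffixed replicate 1), and its call was lost without _7 replicate 3 (edgeR adjusted p = 0.0534). Cnn1, Myl9 and Actg2 were highest in unsuffixed replicates 1 and 2 and lowest, within that group, in replicate 4. The smooth muscle list summed to 1203 to 4153 CPM in unsuffixed and 783 to 984 CPM in _7 tumours, and the groups overlapped in 10 of its 16 genes. Of the smooth muscle list, the number called higher was 4 without _7 replicate 3. Markers of endothelium, the cells of vessels, were called higher in 2 of 23 and lower in 0 (median 0.22), a share of 8.7% against 31% of all genes. Their sums overlapped (817 to 979 CPM in unsuffixed and 610.0 to 998 CPM in _7 tumours). In the endothelium list, genes called higher numbered 0 without _7 replicate 1 or 3, 1 without unsuffixed replicate 1 or 4. Of 10 adipocyte genes tested 0 were called by edgeR, 2 lower by DESeq2 and 3 lower with no filter on low counts. Genes of the adipocyte list called lower numbered 1 without unsuffixed replicate 3 or without _7 replicate 3.

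Mesenchymal regulators differed in both directions. Of 26 EMT and mesenchymal genes, 8 were called higher and 9 lower (median -0.03), a share of 65.4% against 31% overall. Among transcription factors, Twist1 stood at 110.2, 88.8, 100.1 and 78.1 CPM in unsuffixed and 36.2, 38.4 and 32.4 CPM in _7 tumours (1.39 ± 0.15) and Prrx2 at 115, 111, 87 and 83 CPM in unsuffixed and 28.8, 34.6 and 21.5 CPM in _7 tumours (1.80 ± 0.20), both higher in unsuffixed tumours. Zeb1, a repressor of epithelial genes, stood at 93.2, 128, 80.8 and 109 CPM in unsuffixed and 234, 284 and 272 CPM in _7 tumours (-1.36 ± 0.17; edgeR adjusted p = 6.45e-04) and Prrx1 at 160.0, 170.0, 134 and 175 CPM in unsuffixed and 365, 388 and 293 CPM in _7 tumours (-1.14 ± 0.14), both lower. The paralogues Prrx1 and Prrx2 thus went opposite ways. Cdh2, N-cadherin, stood at 9.76, 17.2, 31.1 and 24.5 CPM in unsuffixed and 0.855, 0.768 and 0.471 CPM in _7 tumours (4.87 ± 0.46), S100a4 had 2.15 ± 0.29 and the lymphatic and fibroblast glycoprotein gene Pdpn 2.75 ± 0.41. The matrix glycoprotein gene Tnc, tenascin C, stood at 743, 937, 732 and 662 CPM in unsuffixed and 2482, 3798 and 5432 CPM in _7 tumours (-2.35 ± 0.25), and the receptor kinase gene Axl at 351, 432, 442 and 541 CPM in unsuffixed and 1047, 947 and 1070 CPM in _7 tumours (-1.22 ± 0.16).

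Matrix and fibroblast genes were likewise split. Of 24 fibroblast genes, 3 were called higher and 4 lower (median 0.20), and of 23 collagen genes 4 higher and 3 lower (median 0.08), both shares near the 31% of all genes. Fbn1, fibrillin, stood at 203, 284, 607 and 471 CPM in unsuffixed and 1744, 2282 and 2232 CPM in _7 tumours (-2.43 ± 0.34) and Cxcl12, a stromal chemokine, at 54.6, 74.6, 64.5 and 99.6 CPM in unsuffixed and 301, 355 and 442 CPM in _7 tumours (-2.33 ± 0.22), both lower in unsuffixed tumours, and Lum, lumican (1.23 ± 0.15), and Fbln1, fibulin (1.60 ± 0.23), were higher. For the fibroblast list, the count called lower was 7 without unsuffixed replicate 3. Of the fibroblast list, the number called higher was 5 without unsuffixed replicate 4. Col18a1, which encodes a basement membrane collagen, stood at 1070, 1144, 984 and 1683 CPM in unsuffixed and 617, 442 and 439 CPM in _7 tumours (1.28 ± 0.22). In the collagen list, genes called lower numbered 0 without _7 replicate 3, 1 without _7 replicate 2, 5 without unsuffixed replicate 3. Genes of the collagen list called higher numbered 2 without _7 replicate 1 or 3. Of 34 matrix proteases and inhibitors, 10 were called higher and 5 lower, a share of 44.1% against 31% of all genes. The gelatinase genes Mmp2 and Mmp9 stood at 629, 764, 666 and 444 CPM in unsuffixed and 77.7, 133 and 112 CPM in _7 tumours (2.53 ± 0.24) and at 1073, 1366, 2107 and 699.8 CPM in unsuffixed and 240.1, 274 and 184 CPM in _7 tumours (2.48 ± 0.35), and the crosslinking enzyme gene Loxl1 at 205, 182, 414 and 205 CPM in unsuffixed and 982, 1239 and 1290 CPM in _7 tumours (-2.23 ± 0.28). For the protease list, the count called higher was 6 without _7 replicate 1.

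Cartilage and bone genes were higher in unsuffixed tumours. Of 15 cartilage genes tested (26 listed), 8 were called higher and 0 lower (median 2.69). Acan, the cartilage proteoglycan aggrecan, stood at 249.6, 484, 589.5 and 298 CPM in unsuffixed and 199, 142 and 183 CPM in _7 tumours (1.20 ± 0.29), and its call was lost without _7 replicate 2 (edgeR adjusted p = 0.053). Col11a2, a cartilage collagen, stood at 8.08, 8.87, 12.1 and 4.91 CPM in unsuffixed and 1, 1.44 and 1.45 CPM in _7 tumours (2.69 ± 0.36; edgeR adjusted p = 8.87e-04), and Prg4, lubricin, at 10.3, 19, 15.2 and 2.59 CPM in unsuffixed and 0.595, 1.67 and 1.72 CPM in _7 tumours (3.13 ± 0.66). Sox9, the master regulator of cartilage, was not called (0.24). Of the cartilage list, the number called higher was 5 without _7 replicate 1 or 2. Of 10 bone genes tested (20 listed), 6 were called higher and 1 lower, Spp1, given above, among them; the number called higher was 2 without _7 replicate 1 or 3, 3 without _7 replicate 2. Of 14 skeletal muscle genes tested (43 listed), 1 was called higher and 1 lower. Tnnt2, cardiac troponin T, stood at 8.33, 7.37, 11.3 and 22.6 CPM in unsuffixed and 1.78, 2.5 and 2.12 CPM in _7 tumours (2.52 ± 0.42), and the call of Neb, nebulin (-2.29 ± 0.76), was lost without unsuffixed replicate 1, 2, 3 or 4 or without _7 replicate 1 or 2 (edgeR adjusted p up to 0.35), and its log2 fold change was -0.82 without _7 replicate 2. In the skeletal muscle list, genes called higher numbered 2 without unsuffixed replicate 4, 4 without _7 replicate 2. Genes of the skeletal muscle list called lower numbered 0 without unsuffixed replicate 1, 2, 3 or 4 or without _7 replicate 1 or 2, 2 without _7 replicate 3. Of 12 genes of Schwann cells and neurons tested, 3 were called higher and 4 lower. Stmn2, a neuronal microtubule protein, stood at 192, 244, 238 and 314 CPM in unsuffixed and 4.57, 1.63 and 2.26 CPM in _7 tumours (6.45 ± 0.39; edgeR adjusted p = 2.32e-05), while Nefl, a neurofilament, had -2.29 ± 0.45. For the Schwann cell and neuron list, the count called lower was 2 without _7 replicate 1 or 3. Shares called were 53.3% for cartilage, 70% for bone, 14.3% for skeletal muscle and 58.3% for Schwann cells and neurons, against 31% of all genes.

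Genes that mark position along the body axis differed. Hox genes encode homeobox transcription factors that cells keep from their embryonic origin. Of 39 listed, 22 were tested. Of these, 9 were called higher and 0 lower (median 1.12), a share of 40.9% against 31% of all genes. In 13 every unsuffixed library was above every _7 library, against 19.8% of all genes. The HoxA cluster on chromosome 6 led. Hoxa3 stood at 17.8, 14.9, 17.2 and 19.5 CPM in unsuffixed and 0.706, 1.34 and 1.01 CPM in _7 tumours (4.06 ± 0.27; edgeR adjusted p = 3.38e-05), Hoxa5 at 10.6, 8.01, 10.8 and 16.3 CPM in unsuffixed and 0.818, 0.128 and 0.741 CPM in _7 tumours (4.34 ± 0.55) and Hoxa2 at 5.56, 3.72, 2.82 and 4.34 CPM in unsuffixed and 0.335, 0.256 and 0.202 CPM in _7 tumours (3.93 ± 0.41). All 3 were at or below 1.34 CPM in the _7 tumours. Of the other clusters, Hoxb7 (0.97 ± 0.32), Hoxc6 (2.17 ± 0.45) and Hoxc8 (1.51 ± 0.39) were called, and Hoxb4 (-0.34), Hoxd8 (0.43) and Hoxd9 (0.58) were not. In RP-6306 tumours titled _7 the list summed to 41.9 to 44.8 CPM, between the _7 vehicle (27.5 to 36.7) and the unsuffixed vehicle tumours (74.4 to 109.9). Among imprinted and oncofetal genes, 7 of 25 were called higher and 6 lower, a share of 52% against 31% of all genes. The RNA-binding protein gene Igf2bp1 stood at 84.8, 77.7, 49.8 and 75.9 CPM in unsuffixed and 0.149, 0.192 and 5.36 CPM in _7 tumours (5.22 ± 0.96; 8.65 without _7 replicate 3), Sgce at 25.6, 22.1, 30.4 and 23.4 CPM in unsuffixed and 2.23, 4.32 and 4.31 CPM in _7 tumours (2.79 ± 0.27) and the non-coding H19 at 39.4, 18.9, 85.9 and 118 CPM in unsuffixed and 3.42, 13.8 and 8.22 CPM in _7 tumours (2.93 ± 0.66). Igf2, the neighbour of H19 on chromosome 7, was on the _7 side, as given above, and so was the imprinted zinc finger gene Plagl1 (-2.68 ± 0.45).

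Secreted signals differed member by member. Against 31% of all genes, shares called were 43.8% for the BMP list, 41.7% for TGF-beta, 40.6% for Wnt and 45% for Notch and Hedgehog. They were 40.5% for growth factors and receptor kinases and 25% for chemokines and cytokines. Of 32 genes of the BMP list (ligands, receptors, antagonists and targets) tested, 9 were called higher and 5 lower. Besides Bmp5, the ligand genes Bmp7 (6.01, 3.08, 9.98 and 19.8 CPM in unsuffixed and 0.409, 0.448 and 0.404 CPM in _7 tumours; 4.50 ± 0.65; 3.89 without unsuffixed replicate 4) and Gdf10 (4.79 ± 0.86) were higher. Antagonists went both ways: Fst, follistatin, stood at 59.2, 59.2, 51.9 and 32.9 CPM in unsuffixed and 10.4, 10.7 and 13.4 CPM in _7 tumours (2.13 ± 0.22), and Nog, noggin, at 0.258, 0.358, 0.138 and 0.42 CPM in unsuffixed and 7.32, 16 and 7.64 CPM in _7 tumours (-5.12 ± 0.45; edgeR adjusted p = 1.26e-04). The target Id1 was higher (1.59 ± 0.26). Of 24 genes of the TGF-beta list, 8 were called lower and 2 higher. Tgfb2 stood at 16.4, 16.8, 22 and 11.5 CPM in unsuffixed and 53.2, 79.2 and 50.5 CPM in _7 tumours (-1.88 ± 0.23), the latency protein gene Ltbp1 at 197, 201, 172 and 174 CPM in unsuffixed and 574, 738 and 692 CPM in _7 tumours (-1.85 ± 0.13) and the receptor gene Tgfbr2 at 354, 436, 518 and 449 CPM in unsuffixed and 711, 1080 and 983 CPM in _7 tumours (-1.08 ± 0.18). Of the TGF-beta list, the number called lower was 5 without _7 replicate 2. In the TGF-beta list, genes called higher numbered 0 without _7 replicate 3, 1 without _7 replicate 1. Of 32 Wnt genes, 7 were called higher and 6 lower. Ligand genes split, with Wnt7b at 422, 364, 272 and 431 CPM in unsuffixed and 129, 130.3 and 63.9 CPM in _7 tumours (1.78 ± 0.27) and Wnt10a at 24, 10.8, 8.68 and 21.8 CPM in unsuffixed and 155, 202 and 85.9 CPM in _7 tumours (-3.18 ± 0.40). So did the antagonists: Sfrp1 had 2.20 ± 0.35, and Dkk2 and Dkk3 had -3.27 ± 0.29 and -2.99 ± 0.24. The feedback gene Notum was higher (3.73 ± 0.60; 4.51 without _7 replicate 2). Genes of the Wnt list called higher numbered 4 without _7 replicate 1. Of 20 Notch and Hedgehog genes 7 were called higher and 2 lower, with Notch4 at 76.9, 96.9, 92.5 and 118 CPM in unsuffixed and 25.3, 47.2 and 40.5 CPM in _7 tumours (1.34 ± 0.23). For the Notch and Hedgehog list, the count called higher was 4 without _7 replicate 1. Of the Notch and Hedgehog list, the number called lower was 1 without unsuffixed replicate 2 or 3 or without _7 replicate 1 or 2. Of 42 growth factor and receptor kinase genes, 6 were called higher and 11 lower. Met, the receptor for hepatocyte growth factor, stood at 1937, 2064, 1051 and 1848 CPM in unsuffixed and 733, 744 and 959.8 CPM in _7 tumours (1.08 ± 0.24), its relative Mst1r had 3.58 ± 0.55, and Tyro3, a relative of Axl, -1.67 ± 0.23. In the growth factor and receptor kinase list, genes called lower numbered 7 without _7 replicate 3. Of 32 chemokine and cytokine genes 6 were called higher and 2 lower. Il33, an alarmin, stood at 38.4, 61.9, 238 and 139 CPM in unsuffixed and 9.26, 9.35 and 10.1 CPM in _7 tumours (3.63 ± 0.59) and Csf3, the neutrophil growth factor, at 7.82, 11.4, 2 and 1.4 CPM in unsuffixed and 0.112, 0.576 and 0.202 CPM in _7 tumours (4.19 ± 0.90; 3.61 without unsuffixed replicate 2, 5.09 without _7 replicate 2). Genes of the chemokine and cytokine list called lower numbered 1 without _7 replicate 1.

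**Figure D4:**
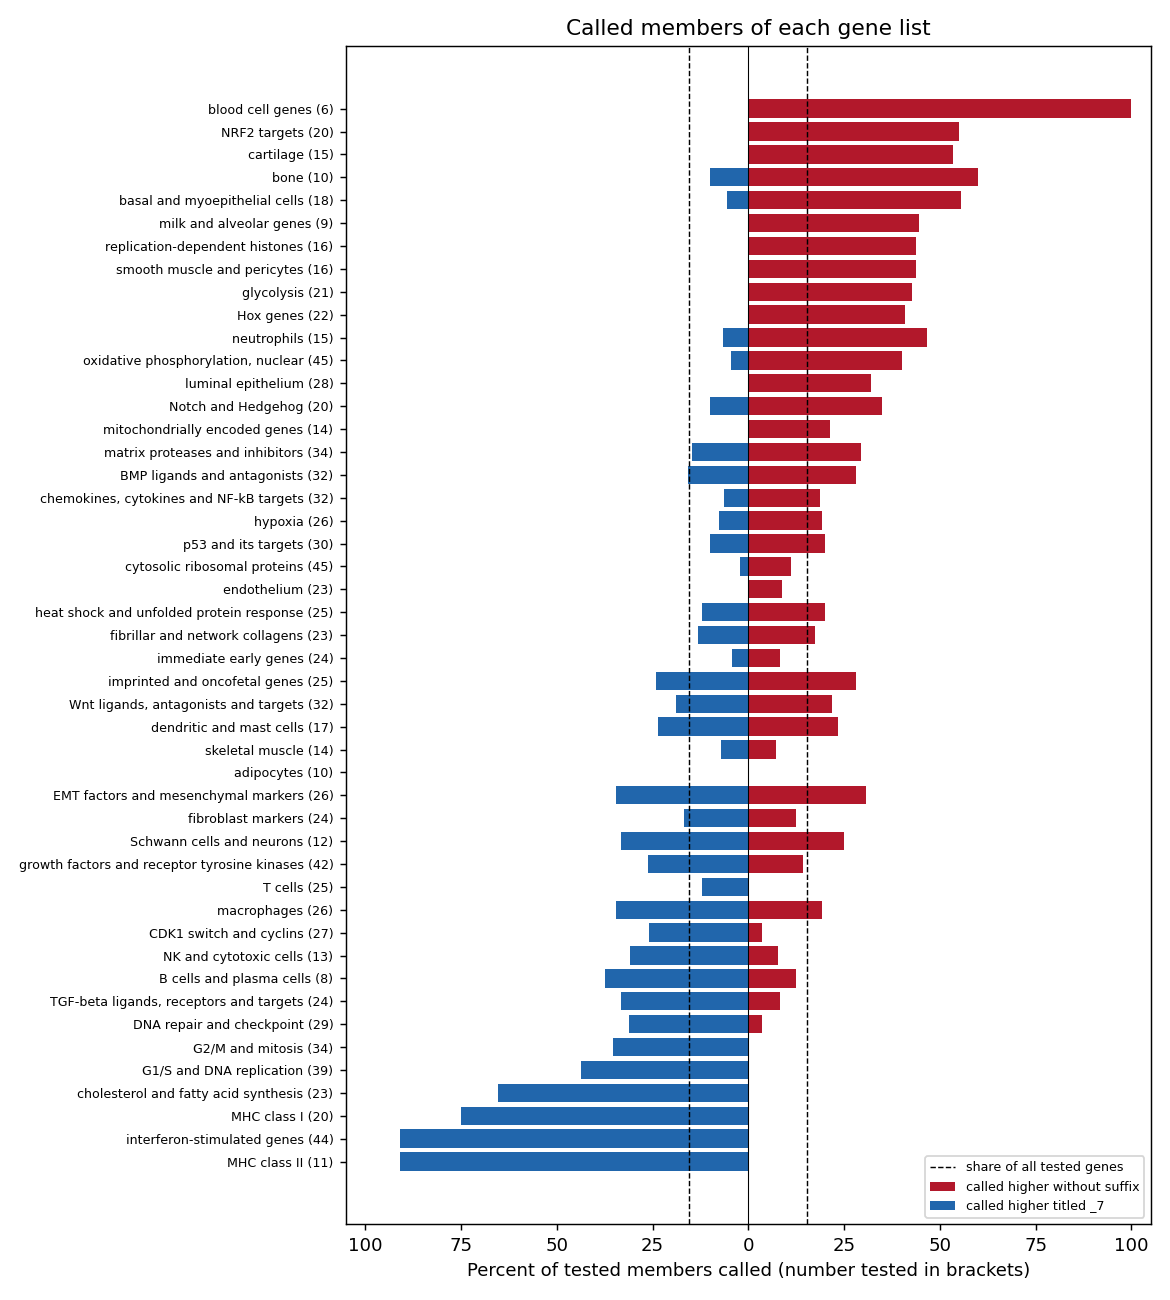
Percent of the tested members of each of 47 gene lists called higher in unsuffixed (red, right) or _7 vehicle tumours (blue, left), with the share of all genes called as dashed lines (15.4% and 15.6%). MHC class II and interferon-stimulated genes stand farthest to the left (90.9% each called lower in unsuffixed tumours), and blood cell, NRF2 target and cartilage genes are on the right.

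Called genes were not spread evenly over the chromosomes, a pattern noticed after the values had been seen. On chromosome 1, 300 of 943 tested genes were called lower in unsuffixed tumours (31.8%, against 15.6% overall) and 78 higher (8.27%), with a median log2 fold change of -0.297. Chromosomes X (-0.221; 26.2% lower) and 9 (-0.177; 22.4% lower) followed. On the other side were chromosomes 12 (0.314; 27.6% higher), 16 (0.283; 23.2% higher) and 15 (0.277; 30.6% higher). Chromosome 6, which holds the HoxA cluster, had a median of 0.184 with 22.3% called higher. The median over genes, taken library by library, did not overlap between the groups on 12 of 20 chromosomes, 6 higher and 6 lower. On chromosome 1 it lay between -0.171 and -0.126 in unsuffixed tumours, between 0.117 and 0.172 in _7 vehicle tumours and between 0.116 and 0.178 in RP-6306 tumours titled _7. Within the _7 vehicle tumours chromosome X ranged from -0.05 to 0.32 and chromosome 15 from -0.258 to -0.03. The copy number of chromosomes was not measured, and its part in these differences was not tested.

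**Figure D5:**
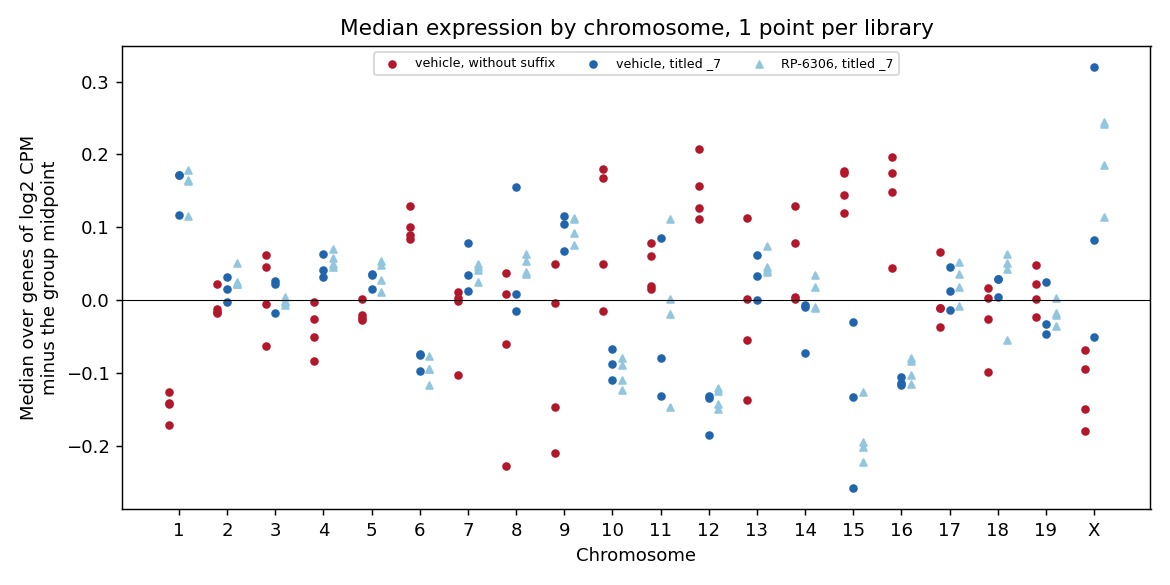
Median over tested genes of log2 CPM minus the midpoint of the 2 vehicle group means (y axis) by chromosome (x axis), with 1 point per library for 4 unsuffixed vehicle, 3 _7 vehicle and 4 _7 RP-6306 tumours. Unsuffixed tumours lie below all _7 tumours on chromosome 1 and above them on chromosomes 6, 12 and 16, and RP-6306 tumours titled _7 lie near the _7 vehicle tumours.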

How the data were processed

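RNA of 33 tumours was sequenced, and the deposited table of read counts per gene was used for 7 vehicle tumours, with 4 RP-6306 tumours titled _7 shown beside them. The authors' steps involved STAR 2.7.10a, HTSeq, edgeR and the GRCm38 build, per the submitters' processing notes, which give no roles; library kit, strandedness and annotation release are not given in the sources used here. A deposited log2 CPM table was not used. Of 54532 rows, 791 had no symbol (0.0446% of counts).

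Counts of the 2 groups were filtered (filterByExpr, minimum count 10), scaled by TMM and tested with edgeR's quasi-likelihood test (edgeR 4.0.16, limma 3.58.1, R 4.3.3), Benjamini-Hochberg adjusted over 15555 genes and called at 0.05. CPM are TMM-scaled over 11 libraries. No pair of libraries within a group agreed within sampling noise (9 pairs, smallest chi-square per degree of freedom 23.3). Simulated counts for this comparison covered 15308 genes, of which 98 were changed by 1 and 92 by 3 on the log2 scale. Of these, edgeR recovered 49% and 96.7%, with 7 false calls. Far fewer genes were changed there than the 4817 called here. The recovery and false calls of the simulation therefore need not hold for the comparison itself.

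The members and gene lists were chosen with earlier results of these data known. Named genes were 6 fixed ones, the 12 largest and 12 smallest fold changes among called genes that did not overlap, and up to 5 called members per list and direction with the smallest p; other members are named where a count of uncalled or called genes needed it, chosen after their values were seen. Folds against 1 to 3 counts have 95% exact counting intervals, and against 0 counts use a floor of 3 counts over the group. Promoters are RefSeq windows of GRCm38.p6. Alternatives were DESeq2 1.42.0 and its size factors, upper quartile scaling, no filter, limma voom with and without quality weights, a test against a 2-fold change, 1 fit over 32 libraries, thinning, protein-coding genes, and leaving out each library. Some genes are not reported here, although they count in the totals.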

Additional observations from a re-analysis of the deposited data

Results flagged for a closer look

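In the group of 4 unsuffixed tumours, 330 levels were examined for a library standing apart from the other 3, and 13 were picked out. Chance flags about 1 in 20 groups, so 13 of 330 is no more than chance alone would give. The _7 group of 3 was not examined. All values are log2 CPM. Unsuffixed replicate 1 was highest for Nell2 (-2.25, the others at -3.63), a gene with 2 counts in the group. Replicate 4 was highest for Igf2 (-2.73, the others at -3.63), a gene with 1 count in the group. It was also highest for Adgre1 (6.04, the others 5.87 to 5.9) and Ccne2 (3.8, the others 2.91 to 3.05), and lowest for Gsn, gelsolin (8.59, the others 8.84 to 8.88). Replicate 2 was lowest for Col4a5, a basement membrane collagen (3.53, the others 4.71 to 4.96).

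Replicate 3 was highest for Loxl1 (8.69, the others 7.51 to 7.68) and Fstl1 (9.19, the others 8.84 to 8.87). It was lowest for Phex (1.7, the others 3.06 to 3.31), Gli3 (5.45, the others 5.78 to 5.83) and Met (10.04, the others 10.85 to 11.01). Of the summed lists, neutrophil genes were lowest in replicate 3 (5.37, the others 6.87 to 7.08), and genes of Schwann cells and neurons were highest in replicate 2 (9.98, the others 9.66 to 9.69).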

How the results depend on the processing

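Of 4817 called genes, none changed sign under any alternative fit. Tested against a fold of at least 2, 753 genes were called (440 higher, 313 lower), with 15 interferon-stimulated, 1 MHC class II, 3 luminal, 3 smooth muscle, 5 Hox and 1 cholesterol and fatty acid synthesis genes. In 1 fit over 32 libraries 2455 were called (1297 higher, 1158 lower), with 25 interferon-stimulated, 21 luminal and 4 Hox genes. Luminal genes called higher numbered 15 with no filter, 14 with DESeq2, 3 with limma voom and 3 with quality weights. Leaving out 1 library gave 3227 to 4624 called genes, 1559 to 2323 higher and 1668 to 2301 lower, with 3 to 14 luminal, 4 to 10 smooth muscle and 34 to 41 interferon-stimulated genes. Among log2 fold changes of named genes, 556 values under an alternative lost a call, 5 gained one and 4278 kept their side of the threshold. Those 4278 include changes of sign in genes called in neither fit. Examples are Pkmyt1 (-0.32 to 0.19 over the alternatives) and Cdk1 (-0.11 to 0.13). No paired analysis was possible because the labels give no replicate numbers. The unsuffixed libraries hold fewer counts, which limits genes near 0.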

Other observations

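Ribosomal protein, immediate early, heat shock and mitochondrial genes are given by their shares called, beside 31% of all genes. Of 45 cytosolic ribosomal protein genes, 5 were called higher in unsuffixed tumours and 1 lower (13.3% called), with a median log2 fold change of 0.19. Of 24 immediate early genes tested, 2 were called higher and 1 lower (12.5%). Of 25 heat shock and unfolded protein response genes, 5 were called higher and 3 lower (32%), close to the share of all genes. Of 14 mitochondrially encoded genes tested, 3 were called higher and 0 lower (21.4%; median 0.51), and the number was 1 without unsuffixed replicate 3 or without _7 replicate 2 or 3.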
